A study of Rattus norvegicus with 36 samples.

Results

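The livers compared here came from rats given the 2 highest doses of bis(2-ethylhexyl) tetrabromophthalate (TBPH), 706 and 70.6 mg/kg, against rats given the 2 lowest, 0.71 and 0.07 mg/kg. The arrays were taken by their labelled dose alone. With 6 arrays at each dose, 12 arrays formed the high arm and 12 the low arm, 24 of the 36 arrays of the series. Vehicle and 7.06 mg/kg, 6 arrays each, were left out, so both arms had been dosed and neither is an untreated control. All rats were male Sprague Dawley rats (Harlan), 7 weeks old at the start, kept on NTP-2000 diet. TBPH in corn oil was gavaged at 5 ml/kg on each of 5 consecutive days, with necropsy and sampling of the left liver lobe a day after dosing ended. The arrays of a dose carry replicate numbers, but the labels do not tie each to its own animal, so p-values here measure the spread between these samples.

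TBPH is a brominated flame retardant built like the plasticiser di(2-ethylhexyl) phthalate, with bromine on the aromatic ring. In rat liver such phthalate esters act largely through metabolites that activate PPAR alpha, the nuclear receptor that switches on peroxisomal and mitochondrial fatty acid oxidation and the Cyp4a omega-hydroxylases. The related receptors CAR and PXR switch on drug-metabolising enzymes, and rodent liver often answers activators of these receptors with a burst of hepatocyte division. The pooled comparison asks whether a range of doses separates liver expression without leaning on any vehicle array.

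No transcript could be called different between the high and the low doses. Each array gives 1 log2 RMA value (a background-corrected, quantile-normalised summary) for each probe set, the group of short probes that reports a transcript. With limma, 0 of 31042 probe sets (0%) had a Benjamini-Hochberg adjusted p under 0.05, and the smallest adjusted p was 1. An unadjusted p under 0.05 was found for 777 probe sets (2.50%), 398 higher (1.28%) and 379 lower (1.22%) in the high arm, where 5% of the probe sets is 1552.1. In no probe set (0%) did the 12 high-dose arrays separate fully from the 12 low-dose arrays. The fitted difference was above 0 in 51.4% of the probe sets and in 53.6% of 14217 genes, each read by its brightest probe set, and the median gene differed by 0.0044 log2.

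**Figure D1:**
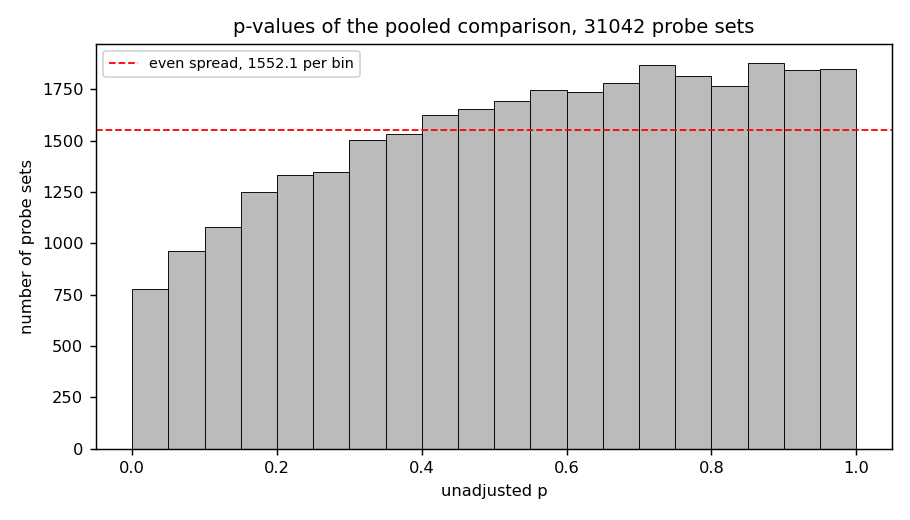
Number of probe sets (vertical axis) in each range of unadjusted limma p (horizontal axis, no unit) for the pooled comparison of 31042 probe sets; the dashed line is an even spread, 1552.1 per range. The bars climb from 777 in the lowest range to 1848 in the highest, so small p-values were fewer than an even spread gives.

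The intervals put bounds on the size of the differences. The median standard error of the pooled log2 difference was 0.06. Its 95% interval lay within a 2-fold change for 99.9% of the probe sets, within 1.5-fold for 99.4% and within 1.25-fold for 95.3%. Among the 11680 probe sets with a mean of at least 6 log2 over the series, where a narrow interval is less likely to reflect only a dim probe set, the shares were 99.7%, 98.9% and 93.6%. A fitted difference of over 0.25 log2 in size was seen in 115 probe sets and over 0.5 in 13. The 2 arms held 3.09% of the variance over all probe sets, with 4.35% of its degrees of freedom, and the 4 doses held 9.99%, with 13.04%.

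An array in each arm stood apart from the others. The GAPDH controls, whose 3′ minus 5′ signal is a measure of RNA integrity, differed by 0.41 log2 on replicate 5 at 70.6 mg/kg and by 0.335 on replicate 4 at 0.07 mg/kg, against at most 0.093 on the other 22 arrays. Their scores on the first principal component were 37.97 and 31.9, against at most 8.47 elsewhere. Hepatocyte markers ran high on all arrays. The mean of 19 hepatocyte genes, Alb and Hnf4a among them, ran from 12.83 to 12.96 log2 in the high arm and from 12.86 to 12.98 in the low arm. Since whole lobe was measured, fewer cells of a type and less RNA per cell cannot be told apart in any value that follows.

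The genes with the smallest p differed by little. Among probe sets with 1 gene symbol and a mean of at least 6 log2, the 10 highest-ranked genes in the high arm exceeded the low arm by 1.11-fold to 1.56-fold, and the 10 ranked for lower values fell short by 1.10-fold to 1.50-fold. Unadjusted p-values ran from 0.00115 to 0.0097 and from 0.00107 to 0.0106, and the limma adjusted p was 1 for each of them. They were picked on this same contrast, so their direction within it carries no further weight.

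Cidea, Acaa2, Pparg and Cers6 were among the 10 genes ranked for higher values in the high arm. Cidea, a lipid droplet protein that promotes the growth of large droplets, had the lowest, median and highest values 6.64, 7.59 and 8.32 log2 in the high arm and 6.23, 6.78 and 7.83 in the low arm. The difference was 0.64 (95% interval 0.26 to 1.02, unadjusted p = 0.00202, limma adjusted p = 1), with means of 7.51 ± 0.56 at 70.6 mg/kg and 7.41 ± 0.57 at 706 mg/kg (SD, n = 6 each). The arms overlapped widely, since 1 low-dose array lay above all but 2 of the high-dose arrays. In the arrays outside the comparison Cidea averaged 6.91 in vehicle and 6.89 at 7.06 mg/kg, both within the range of the low doses. Acaa2, the thiolase of mitochondrial fatty acid oxidation, ran from 12.50 through 12.65 to 12.94 in the high arm and from 11.98 through 12.51 to 12.84 in the low arm. Its difference was 0.27 (0.09 to 0.46, unadjusted p = 0.00495, limma adjusted p = 1). The lowest dose mean was that of 0.71 mg/kg, 12.30 against 12.56 at 0.07 mg/kg and 12.59 in vehicle, and another Acaa2 probe set differed by -0.03. Pparg, the receptor that drives fat cell formation, differed by 0.23 (0.06 to 0.40), with values of 5.91, 6.20 and 6.63 against 5.68, 5.90 and 6.35. Every high-dose array of Pparg lay above the low-arm median, and 2 lay above all low-dose arrays. Cers6, a ceramide synthase, differed by 0.29 (0.10 to 0.47), with the vehicle mean of 7.49 nearer to the high arm's 7.57 than to the low arm's 7.28.

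The detoxification genes Ces2c and Gstm7 also ranked among the higher genes. Ces2c, a carboxylesterase that cleaves ester drugs and is induced through CAR and PXR, ran from 6.96 through 7.40 to 7.52 in the high arm and from 6.88 through 7.14 to 7.38 in the low arm. The difference was 0.20 (0.06 to 0.34, unadjusted p = 0.00676, limma adjusted p = 1). In the high arm 7 of 12 arrays lay above every low-dose array, and 2 fell below the low-arm median. Vehicle averaged 7.14 and 7.06 mg/kg averaged 7.18, beside 7.17 and 7.10 at the low doses. Gstm7, a glutathione S-transferase, differed by 0.21 (0.06 to 0.36), with values of 9.12, 9.32 and 9.61 against 8.70, 9.12 and 9.57. Only 1 high-dose array lay above all low-dose arrays. The other genes of this rank were Kctd2 (0.15), Cdkal1, a tRNA-modifying enzyme (0.15), Acvr1, a receptor for bone morphogenetic proteins (0.30), and Car8, a catalytically inactive relative of the carbonic anhydrases (0.23). A brighter Acvr1 probe set, of mean 7.96, differed by only 0.05, and a further one by 0.16.

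Among genes with lower values in the high arm, Pkdcc, a secreted protein kinase, had the smallest p. Its values were 7.58, 8.15 and 8.51 in the high arm and 8.15, 8.52 and 8.75 in the low arm, a difference of -0.34 (-0.52 to -0.15, unadjusted p = 0.00107, limma adjusted p = 1). All 12 high-dose arrays lay below the low-arm median and 6 lay below every low-dose array. Vehicle averaged 8.25, nearer to the high arm (8.17) than to the low arm (8.50). Ncald, a neuronal calcium sensor, ran from 6.12 through 6.52 to 7.87 against 6.52 through 7.42 to 8.03. The difference was -0.58 (-1.02 to -0.15, unadjusted p = 0.0104, limma adjusted p = 1). Its arrays spanned a wide range in every dose group. At 70.6 mg/kg the upper end was replicate 3 alone, 7.55 against a dose median of 6.40. The SD within the arms, 0.55 and 0.57 (n = 12 each), was about as large as the difference. Another Ncald probe set differed by -0.13. Spry4, an inhibitor of growth factor receptor signalling, ran from 5.88 through 6.20 to 6.54 against 6.28 through 6.36 to 6.55. Its difference was -0.17 (-0.30 to -0.04), with 7 high-dose arrays below every low-dose array. Values below 0 were also fitted for C11h21orf91 (-0.38, and -0.24 at another probe set) and Pcsk6, a proprotein convertase (-0.17). Ghitm, a protein of the inner mitochondrial membrane, differed by -0.17, and by -0.09 at a brighter probe set. Cathepsin O, Ctso (-0.16), the orphan cytochrome P450 Cyp20a1 (-0.15), the RNA editing enzyme Adarb1 (-0.15) and Tmem161b (-0.13) completed the 10. Other probe sets differed by -0.02 and -0.10 for Adarb1 and by -0.03 for Tmem161b. Among the 20826 probe sets with 1 gene symbol, whatever their brightness, the smallest unadjusted p belonged to Plek2 (difference -0.28, unadjusted p = 0.000223, limma adjusted p = 1). The next ones in that set belonged to Pkdcc and Scai (difference 0.19). The Plek2 and Scai probe sets were dim, with means of 4.96 and 3.76 over the series.

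**Figure D2:**
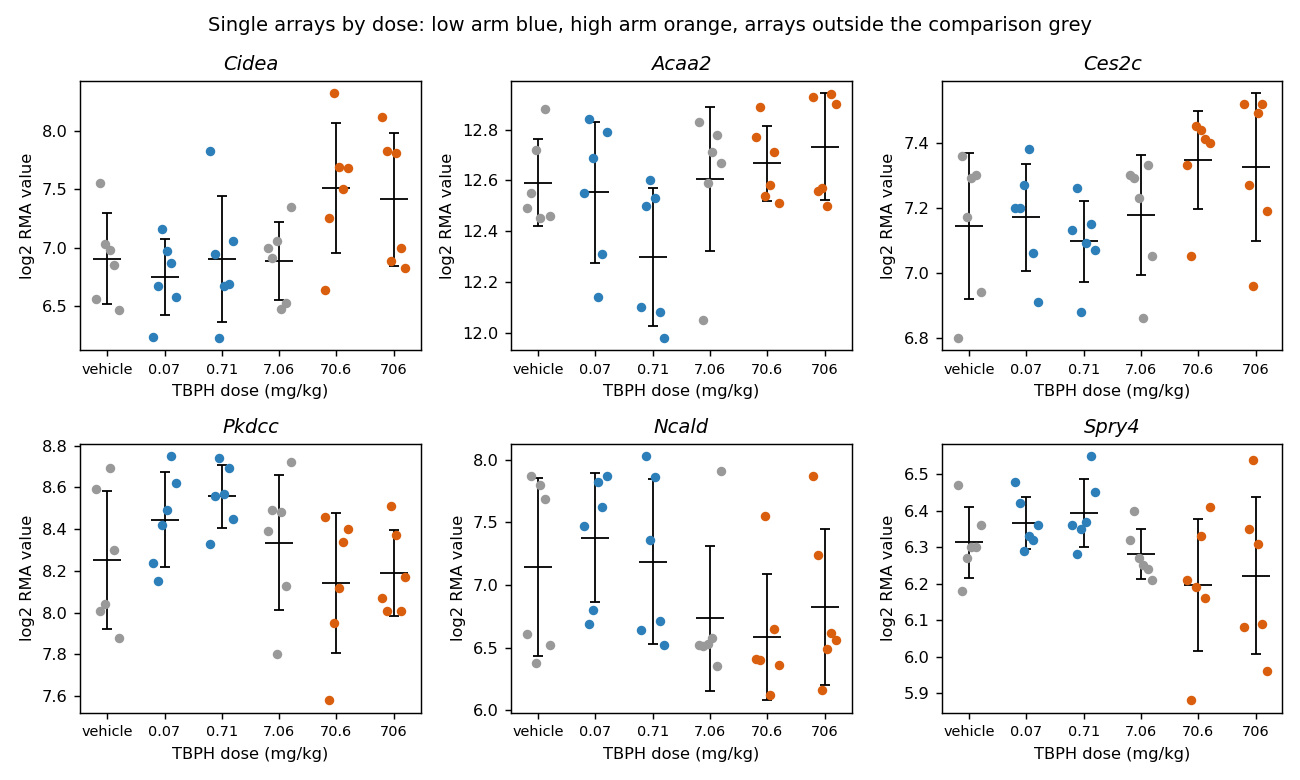
Log2 RMA value of each array (vertical axis) by TBPH dose in mg/kg (horizontal axis) for 6 genes of the smallest p, with the mean and SD of each dose (n = 6) in black; low-arm arrays are blue, high-arm arrays orange and arrays outside the comparison grey. The arms overlap for every gene, as in Cidea, where the high arm spans 6.64 to 8.32 and the low arm 6.23 to 7.83.

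The ranking had not used the arrays left out of the comparison. The contrast of 7.06 mg/kg with vehicle had the same sign as the pooled one for 13 of the 20 genes, 7 of the 10 higher and 6 of the 10 lower, against 52.5% of all probe sets. The vehicle mean lay nearer to the low arm than to the high arm for 15 of the 20, against 54.2% of all probe sets. Acvr1 (0.18), Pparg (0.17), Ncald (-0.41) and C11h21orf91 (-0.20) had the larger 7.06 mg/kg minus vehicle differences of the same sign. Their unadjusted p-values in that contrast were 0.262, 0.0954, 0.205 and 0.0889, in that order (limma). Cidea (-0.02) and Pkdcc (0.08) had the opposite sign. With limma, 0 of 31042 probe sets passed in that contrast (0%; 1480 with an unadjusted p under 0.05, 4.77%), and the smallest adjusted p was 0.955. Across probe sets, which are not independent replicates, the pooled difference and the 7.06 mg/kg minus vehicle difference correlated at r = 0.12.

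**Figure D3:**
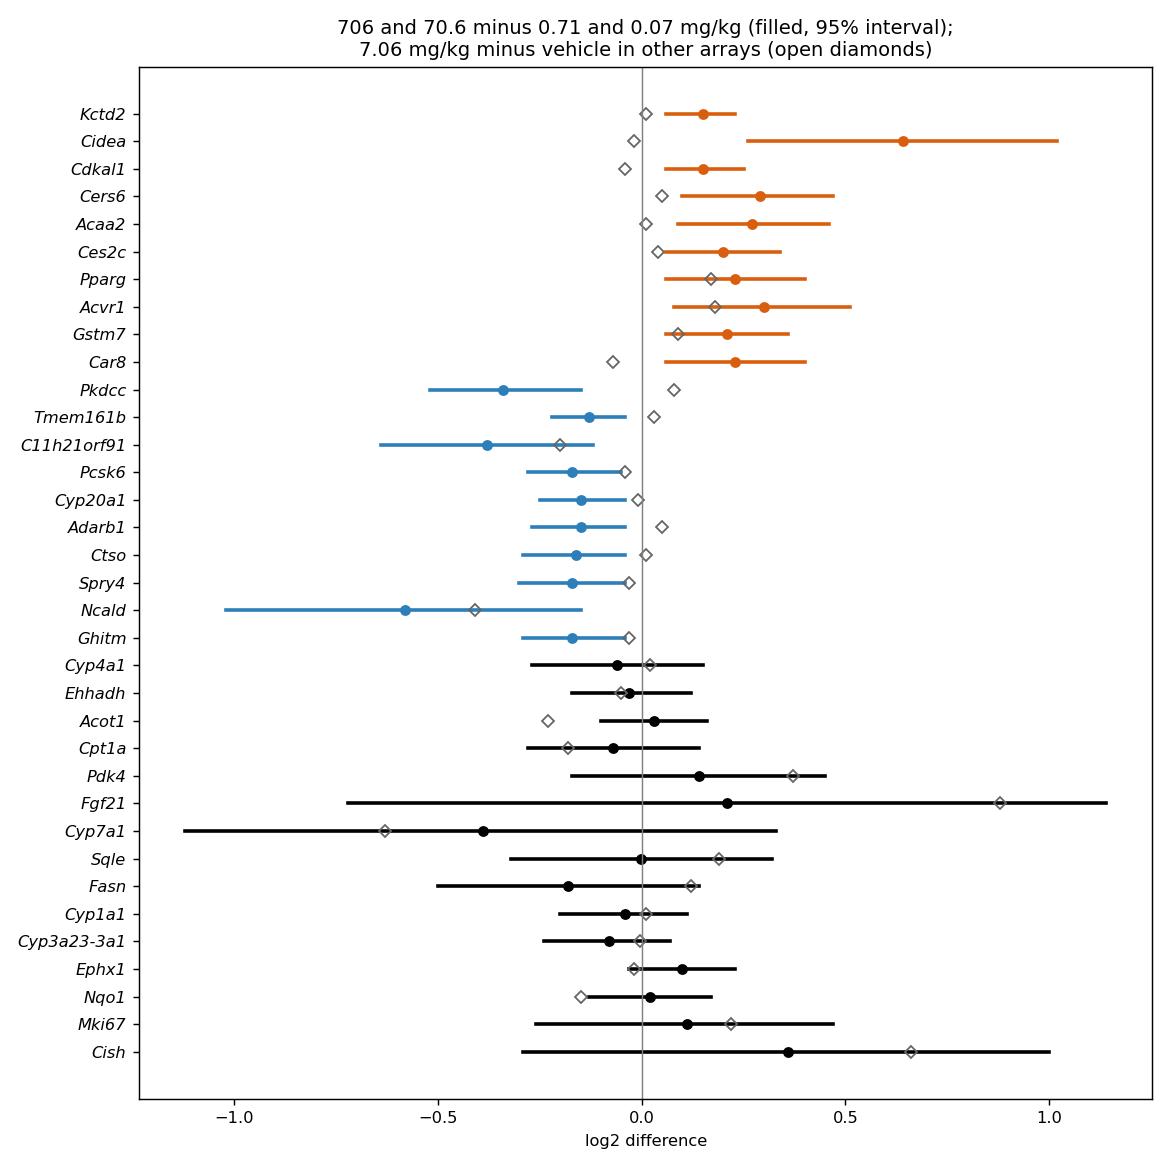
Log2 difference (horizontal axis) of the 20 genes of the smallest p and of 15 genes known to respond to phthalate esters or other liver-active chemicals; filled points are the high minus low dose arms with 95% intervals (12 arrays an arm), and open diamonds are 7.06 mg/kg minus vehicle in other arrays (6 against 6). Intervals of the lower 15 genes all cover 0, and the diamonds lie on the same side as the filled points for 13 of the upper 20.

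Genes that PPAR alpha is known to induce did not separate the arms. Cyp4a1, the fatty acid omega-hydroxylase most used as a marker of this receptor, ran from 10.58 through 11.33 to 11.69 in the high arm and from 10.84 through 11.36 to 12.04 in the low arm. The difference was -0.06 (95% interval -0.27 to 0.15, limma adjusted p = 1). By dose its mean was 11.52 ± 0.27 at 0.07 mg/kg, 11.20 ± 0.29 at 0.71, 11.14 ± 0.31 at 70.6 and 11.45 ± 0.19 at 706 mg/kg (SD, n = 6 each), so the higher means were at the lowest and at the highest dose. Ehhadh, an enzyme of the peroxisomal fatty acid oxidation cycle, differed by -0.03 (-0.17 to 0.12). Cpt1a, which admits fatty acids to mitochondria, differed by -0.07 (-0.28 to 0.14), Pdk4, which spares glucose in fasting, by 0.14 (-0.17 to 0.45) and Acot1, read by a dim probe set of mean 2.74, by 0.03. Fgf21, the fasting hormone of liver, differed by 0.21 with a wide interval (-0.72 to 1.14), and its values spanned 6.14 to 9.74 in the high arm and 5.84 to 10.14 in the low arm. These intervals exclude a doubling for Cyp4a1, Ehhadh, Cpt1a and Pdk4, but not for Fgf21. Of the 51 measured PPAR alpha targets 23 were higher and 28 lower (45.1% higher, against 53.6% of all genes), with a median of -0.01, 0 called and 1 with an unadjusted p under 0.05 (Cyp4a8, a further omega-hydroxylase, -0.15). Over all genes, 2.26% had such a p.

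The genes of sterol, bile acid and fat synthesis also held no call. Cyp7a1, which starts bile acid synthesis and sets its rate, ran from 8.60 through 9.67 to 11.62 against 8.64 through 10.39 to 11.61, a difference of -0.39 (-1.12 to 0.33). Cyp8b1, which sets the cholic acid share, differed by 0.14 (-0.07 to 0.35), and the 23 bile acid genes had a median of -0.01 with 9 higher. Sqle, squalene epoxidase, differed by -0.002 (-0.32 to 0.32), and 4 of 20 cholesterol synthesis genes were higher, with a median of -0.01. Without the 2 arrays of high GAPDH control difference 12 of the 20 were higher (median 0.01), and the count reached 16 (median 0.03) without replicate 5 at 706 mg/kg alone. Fatty acid and triglyceride synthesis had 2 of 24 genes higher and 22 lower, a median of -0.07, which with the MHC class II list was the lowest of the 34 lists at this rounding. The 22 include Pnpla2 (-0.09), a triglyceride lipase and not an enzyme of synthesis. Scd, the stearoyl-CoA desaturase, differed by -0.33 (-0.84 to 0.18), Gpam, which starts glycerolipid assembly, by -0.20 (-0.41 to 0.0036), and Fasn, fatty acid synthase, by -0.18 (-0.50 to 0.14), which was -0.09 without the 2 arrays. Without the 2 arrays 8 of the 24 were higher and the median was -0.03. Leaving out single arrays moved the count between 1 and 7, the latter without replicate 4 at 0.07 mg/kg, and kept the median at -0.03 or below. At 7.06 mg/kg against vehicle 19 of 24 were higher, where 54.4% of all genes were. With all 24 arrays and the GAPDH control difference as a covariate, 4 of 20 cholesterol synthesis genes (median -0.03) and 1 of 24 fatty acid and triglyceride synthesis genes (median -0.08) were higher, and Fasn differed by -0.20.

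Xenobiotic response genes gave small values on both sides. Among 22 CAR and PXR targets 13 were higher and 9 lower (median 0.01), and only Ces2c had an unadjusted p under 0.05. Cyp3a23-3a1, an inducible Cyp3a enzyme that shares sequence with its Cyp3a neighbours, differed by -0.08 (-0.24 to 0.07), and Ephx1, microsomal epoxide hydrolase, by 0.10 (-0.03 to 0.23). Cyp1a1, the main aryl hydrocarbon receptor target, differed by -0.04 (-0.20 to 0.11) at a dim mean of 4.67, and 3 of 10 targets of that receptor were higher (median -0.03). Nqo1, a quinone reductase of the NRF2 programme, differed by 0.02 (-0.13 to 0.17). The 28 NRF2 genes had 18 higher and a median of 0.01, and 3 had an unadjusted p under 0.05. These were Gstm3 at 0.17, Hmox1 at 0.25 and, on the lower side, Cbr1, a carbonyl reductase, at -0.12. Hmox1, heme oxygenase, had its highest value, 9.88, on replicate 5 at 70.6 mg/kg, the array that stood apart. Without the 2 arrays of high GAPDH control difference, Hmox1 differed by 0.16. Its unadjusted p was then 0.0166, against 0.0291 with those arrays included (limma), so the smaller difference did not come with a larger p. Conjugation enzymes had 19 of 30 higher (median 0.01), with Gstm7 and Gstt1 (0.14) having the smallest p, and carboxylesterases and lipases 9 of 16 (median 0.03).

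Cell cycle genes leaned to the high arm more than any other list by share of members. Of 48 measured members 41 were higher and 7 lower (85.4%, against 53.6% of all genes), with the highest median of the 34 lists, 0.08. None was called, and 1 had an unadjusted p under 0.05. These genes are low in resting liver, and 18 of the 48 had a mean of at least 6 log2. Bub1b, a kinase of the spindle checkpoint, ran from 3.93 through 4.19 to 4.55 in the high arm and from 3.72 through 4.09 to 4.16 in the low arm, a difference of 0.17 (0.03 to 0.31, unadjusted p = 0.0229, limma adjusted p = 1). In Bub1b 7 high-dose arrays lay above every low-dose array. Kif11, the motor that separates spindle poles, ran from 4.43 through 4.80 to 5.21 against 4.08 through 4.41 to 5.13, a difference of 0.22 (-0.02 to 0.46). All 12 high-dose arrays of Kif11 lay above the low-arm median. Cdkn3, a phosphatase acting on cyclin-dependent kinases, differed by 0.29, Hmmr by 0.23, the mitotic kinase Cdk1 by 0.21 and Mki67, the antigen of dividing cells, by 0.11 (-0.26 to 0.47). The 7 members below 0 were the G1 cyclins Ccnd1 (-0.09), Ccne2 (-0.08) and Ccne1 (-0.07), the replication factors Mcm3 (-0.08) and Mcm5 (-0.02), Tyms of thymidylate synthesis (-0.03) and the phosphatase Cdc25b (-0.05). Leaving out single arrays moved the count between 36 and 42 of 48 and the median between 0.04 and 0.12. At 7.06 mg/kg against vehicle 32 members were higher and 16 lower (median 0.05), where 54.4% of all genes were higher.

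The mean of the 48 cell cycle genes varied more within arms than between them. It ran from 5.21 through 5.62 to 6.11 in the high arm and from 5.39 through 5.55 to 5.86 in the low arm, so the high arm held both the lowest and the highest array. By dose the mean was 5.55 ± 0.17 at 0.07 mg/kg, 5.63 ± 0.18 at 0.71, 5.59 ± 0.27 at 70.6 and 5.75 ± 0.27 at 706 mg/kg (SD, n = 6 each), beside 5.59 ± 0.23 in vehicle. The highest mean was that of 706 mg/kg, and the mean of 70.6 mg/kg equalled that of vehicle at this rounding. Against 0.71 mg/kg, 43 of the 48 members were higher at 706 mg/kg (median 0.11) and 16 at 70.6 mg/kg (median -0.04). Against 0.07 mg/kg the counts were 41 (median 0.18) and 29 (median 0.02). The contrasts with the same low dose share its 6 arrays and are given side by side. Over all genes 50.2%, 52.8%, 52.7% and 54.3% were higher in these contrasts, in the order given.

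The promoters of Bub1b and Kif11, the list members of smallest p, are shown for a pair of motifs found in many genes of mitosis. Each holds only 1 of them, with no CCAAT in Bub1b and no TTTGAA in Kif11 in this window. The sequences are those of RefSeq on the rat build GRCr8, from 250 bases before to 50 after the annotated start, at chr3:126016817-126017116 and chr1:244536617-244536916, both on the plus strand. Capitals mark the cell cycle homology region core TTTGAA in Bub1b and a CCAAT box, read here as ATTGG from the opposite strand, in Kif11.
Bub1b: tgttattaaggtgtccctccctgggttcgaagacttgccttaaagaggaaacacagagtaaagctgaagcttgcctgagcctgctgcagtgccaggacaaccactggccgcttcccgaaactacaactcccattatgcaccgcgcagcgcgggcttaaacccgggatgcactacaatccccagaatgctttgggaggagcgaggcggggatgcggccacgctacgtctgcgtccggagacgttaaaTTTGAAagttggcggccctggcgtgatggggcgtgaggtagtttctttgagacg
Kif11: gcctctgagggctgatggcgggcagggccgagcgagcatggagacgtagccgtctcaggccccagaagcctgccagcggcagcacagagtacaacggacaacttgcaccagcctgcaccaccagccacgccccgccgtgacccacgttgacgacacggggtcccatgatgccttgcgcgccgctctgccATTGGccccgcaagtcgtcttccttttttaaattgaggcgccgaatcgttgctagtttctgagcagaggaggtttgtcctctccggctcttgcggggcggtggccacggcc
Of the 48 genes 40 matched a promoter in that table. TTTGAA on either strand stood in 19 of the 40 (47.5%), against 4962 of 27457 promoters of the same length (18.1%), and CCAAT in 32 (80.0%), against 10363 (37.7%). Both motifs, which can overlap by at most 1 base, stood in 17 (42.5%), against 1991 (7.3%). A match is a description of letters. The list was written for cell cycle function, and G1 and replication genes are among its members.

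**Figure D4:**
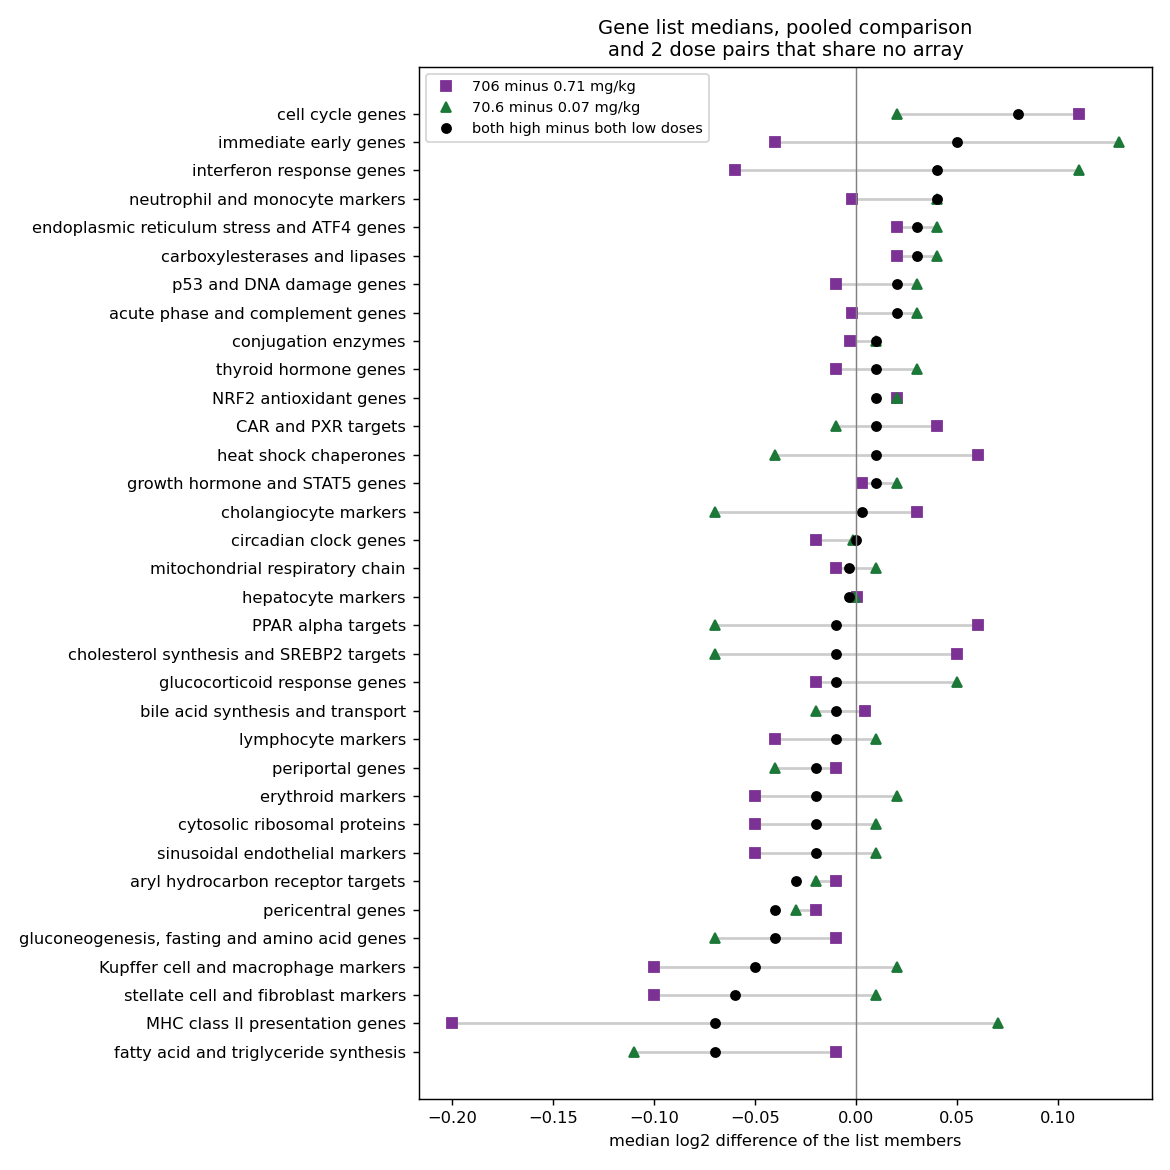
Median log2 difference of the members (horizontal axis) of each of 34 gene lists, in the pooled comparison (black circles, 12 arrays against 12) and in the dose pairs 706 minus 0.71 mg/kg (purple squares) and 70.6 minus 0.07 mg/kg (green triangles), which share no array (6 against 6 each). Pooled medians lie between -0.07 and 0.08, and the pairs lie on opposite sides of 0 for lists such as PPAR alpha targets (0.06 and -0.07) and MHC class II genes (-0.20 and 0.07).

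The high and low doses can be paired so that each array is used once, which splits the pooled difference into contrasts with no shared array. The differences of 706 minus 0.71 mg/kg and of 70.6 minus 0.07 mg/kg correlated at r = -0.06 across probe sets and had the same sign in 47.8%. In the crossed pairing, 706 minus 0.07 and 70.6 minus 0.71 mg/kg, r was -0.05 and the sign was shared by 48.4%. Restricting to the 11680 brighter probe sets gave r of -0.12 and -0.04. No probe set passed in any of the 4 contrasts with limma (0 of 31042 each), and 726, 955, 742 and 927 had an unadjusted p under 0.05 (2.34%, 3.08%, 2.39% and 2.99%). In the first pairing 44 probe sets had such a p in both contrasts, 6.06% of the 726 and 4.61% of the 955, and 25 of the 44 shared their sign. In the crossed pairing it was 43, 5.80% of the 742 and 4.64% of the 927, with 22 of the same sign. Although the contrasts of a pairing share no array, all doses were fitted together, so their p-values use the same residual variance. A probe set of small variance can thus have a small p in both, and these overlaps do not measure independent agreement. The difference between the contrasts of a pairing was tested as well. It passed for 0 probe sets in both pairings, with 869 and 902 at an unadjusted p under 0.05 by limma.

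Several lists pointed one way in one pair of doses and the other way in the next. Over all genes 50.2% were higher for 706 minus 0.71 mg/kg, 54.3% for 70.6 minus 0.07 mg/kg, 52.7% for 706 minus 0.07 mg/kg and 52.8% for 70.6 minus 0.71 mg/kg. PPAR alpha targets were higher in 37 of 51 genes for 706 minus 0.71 mg/kg and in 12 of 51 for 70.6 minus 0.07 mg/kg, with medians of 0.06 and -0.07. Cholesterol synthesis genes gave 15 and 4 of 20, with medians of 0.05 and -0.07. Cytosolic ribosomal proteins gave 0 and 17 of 24, with medians of -0.05 and 0.01, against a pooled count of 3 of 24 (median -0.02). Without replicate 3 at 706 mg/kg the pooled count was 10 of 24 (median -0.01).

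Stress and hormone lists held no call, with pooled medians from -0.04 to 0.05, against 0.0044 for all genes. Immediate early genes had 21 of 32 higher (median 0.05), with 13 in the 706 minus 0.71 mg/kg pair and 25 in the 70.6 minus 0.07 mg/kg pair. Junb (0.27) and Socs3 (0.23) had the smallest p, and Dusp1, a phosphatase that shuts off MAP kinases, differed by 0.55 (-0.07 to 1.18). A dimmer Dusp1 probe set, of mean 6.29, differed by 0.64 (0.03 to 1.25, unadjusted p = 0.0399, limma). At the brighter probe set Dusp1 averaged 10.57 ± 0.55 at 70.6 mg/kg and 9.59 ± 1.13 at 706 mg/kg (SD, n = 6 each), beside 9.48 and 9.57 at the low doses, so the higher mean was that of 70.6 mg/kg alone. Cish, a target of growth hormone signalling through STAT5, did likewise, with 8.10 ± 0.17 at 70.6 and 7.07 ± 1.04 at 706 mg/kg (SD, n = 6 each). Its pooled difference was 0.36 (-0.29 to 1.00). Growth hormone and STAT5 genes as a list had 15 of 29 higher (median 0.01), glucocorticoid response genes 9 of 19 (median -0.01) and thyroid hormone genes 8 of 16 (median 0.01). Gluconeogenesis, fasting and amino acid genes had 9 of 25 higher (median -0.04), with Igfbp1 at -0.44 (-0.95 to 0.06). Without the 2 arrays of high GAPDH control difference Igfbp1 differed by -0.59 (unadjusted p = 0.0183, limma). Circadian clock genes had 10 of 19 higher, with a median of 2.9e-05. Endoplasmic reticulum stress and ATF4 genes had 20 of 30 higher (median 0.03), heat shock chaperones 11 of 18 (median 0.01; 6 of 18 without replicate 2 at 70.6 mg/kg) and p53 and DNA damage genes 10 of 16 (median 0.02), where Mdm2 (0.11) and Plk3 (0.12) had an unadjusted p under 0.05.

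Plasma protein and mitochondrial genes, which make up much of the liver's output, held no call. Acute phase and complement genes had 18 of 29 higher (median 0.02). C6, a component of the membrane attack complex, ran from 8.67 through 9.13 to 10.31 against 8.06 through 8.80 to 9.43, a difference of 0.45 (0.08 to 0.81, unadjusted p = 0.0178, limma adjusted p = 1), and C9 differed by 0.10 (0.01 to 0.20). Without the 2 arrays of high GAPDH control difference, C6 differed by 0.28 (unadjusted p = 0.0806, limma). Of the high-dose arrays 4 exceeded every low-dose array in C6. The respiratory chain had 17 of 37 higher (9 of 37 without replicate 5 at 70.6 mg/kg, and 9 with the GAPDH control difference as a covariate), a median of -0.0037 and members from -0.07 to 0.05. Pericentral genes had 5 of 15 higher (median -0.04) and periportal genes 5 of 14 (median -0.02).

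Markers of cell types other than hepatocytes lay mostly on the lower side, and none was called. Kupffer cell and macrophage markers were higher in 3 of 16 (median -0.05), with Adgre1 at -0.13 (-0.35 to 0.08) and Clec4f at -0.05. Their mean ran from 8.29 to 8.97 log2 in the high arm and from 8.21 to 8.85 in the low arm. MHC class II genes had 2 of 9 higher (median -0.07), and without the 2 arrays that stood apart 0 of 9 were higher, with a median of -0.18. Leaving out replicate 2 at 70.6 mg/kg or replicate 6 at 706 mg/kg put 6 of the 9 MHC class II genes and 6 of the 16 Kupffer cell markers higher, and leaving out replicate 4 at 0.71 mg/kg put 1 and 0 higher. For stellate cells and fibroblasts 7 of 27 markers were higher (median -0.06), but 22 of 27 for 706 minus 0.07 mg/kg and 0 of 27 for 70.6 minus 0.71 mg/kg. Their mean was 7.24 ± 0.23 at 0.71 mg/kg against 7.01 to 7.12 at the other doses of the comparison. Sinusoidal endothelial markers had 6 of 15 higher (median -0.02), cholangiocyte markers 6 of 12 (median 0.0027), lymphocyte markers 7 of 19 (median -0.01; 3 of 19 without replicate 5 at 70.6 mg/kg and 11 without replicate 6 at 706 mg/kg), erythroid markers 3 of 11 (median -0.02) and neutrophil and monocyte markers 8 of 11 (median 0.04). The mean of the neutrophil and monocyte markers ran from 3.74 to 4.29 in the high arm and from 3.78 to 3.98 in the low arm, all at dim values. Interferon response genes had 27 of 39 higher (median 0.04), yet 11 of 39 (median -0.02) without the 2 arrays, 13 without replicate 5 at 70.6 mg/kg alone, 14 without replicate 4 at 0.71 mg/kg and 10 of 39 at 7.06 mg/kg against vehicle. With the GAPDH control difference as a covariate 25 of the 39 interferon response genes (median 0.03) and 2 of the 9 MHC class II genes (median -0.09) were higher. Hepatocyte markers had 9 of 19 higher and a median of -0.0038.

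Over the 34 lists together, 715 different genes were measured and 14 of the distinct members had an unadjusted p under 0.05 (1.96%, against 2.26% of all genes). Of the 715 genes 356 were higher in the high arm, and 16 of the 34 list medians were above 0.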

How the data were processed

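Liver RNA was hybridised to Affymetrix 3′ expression arrays. The deposited table holds log2 values, 1 per probe set and array, made with RMA and the affy package per the submitters' processing notes, which give no versions; a genome build is not given in the sources used here. Values ran from 1.86 to 14.77, with 0 missing and no array repeated. The table lists 31099 probe sets, and the tests used the 31042 that are not among its 57 array controls. GEO's platform annotation gave 1 symbol for 20826, several for 436 and none for 9780, and only those with 1 symbol were named, 20758 of them matched by Entrez ID to RefSeq. They stand for 14217 genes, 4525 with more than 1 probe set. A gene without such a probe set was not analysed here. Arrays give no read depth, and their number limits the precision.

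Groups come from the labelled dose. limma 3.58.1 in R 4.3.3 fitted 1 mean for each of the 4 doses on 24 arrays (20 residual degrees of freedom), with the contrast of the mean of 706 and 70.6 mg/kg minus the mean of 0.71 and 0.07 mg/kg, moderated two-sided tests and Benjamini-Hochberg adjustment over the 31042 probe sets at 0.05. The series' design text names R/maanova at a false discovery rate of 5%, and limma was used in its place. The contrast of 7.06 mg/kg with vehicle was fitted on those 12 arrays alone. The fit was tested on simulated data.

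Genes were named by rule. The rule takes the 10 genes of the smallest p in each direction among probe sets with 1 symbol and a mean of at least 6 log2 over 36 arrays. It adds the 3 of the smallest p among probe sets with 1 symbol at any brightness. A panel of 16 genes, of which 15 were measured, and the 2 members of the smallest p in each list complete it. Further list members serve as examples and were picked with their values in view. Each list was read by the brightest probe set of each gene and described by counts and medians, with no test. The comparison, the lists and the genes of interest were chosen with earlier results of these data known. Alternatives were all 36 arrays, a replicate block, variance moderation, array weights, dim probe sets, 1 probe set per gene, normalization, the arrays of high control difference, thresholds, the dose scale, the doses in the contrast and leaving out each array. The replicate block for the single dose pairs and for 7.06 mg/kg against vehicle was added after seeing the data. Promoters are RefSeq's for GRCr8, in a window from 250 bases before to 50 after the start. Plots used matplotlib 3.10.9 (Python 3.11.15).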

Additional observations from a re-analysis of the deposited data

Results flagged for a closer look

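Within each dose of 6 arrays, the highest or lowest array was compared with its nearest neighbour, and a gap above 0.625 of the group's range singled it out. This happened in 24 of 400 groups of a gene or control measure and a dose (6.0%), where chance gives about 1 in 20. The GAPDH control 3′ minus 5′ difference was singled out as high in replicate 4 at 0.07 mg/kg (gap share 0.642) and replicate 5 at 70.6 mg/kg (0.647).

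On the same replicate 5 at 70.6 mg/kg, Hmox1 (9.88 log2 against a dose median of 8.67, gap share 0.787), S100a8, a neutrophil protein (5.35 against 4.28, 0.716) and Ciita, the MHC class II activator (5.55 against 4.96, 0.632) were high. On replicate 4 at 0.07 mg/kg, Fgf21 was high (10.14 against 6.75, 0.706) and Adarb1 low (5.83 against 6.15, 0.734). Fgf21 was also high on replicate 2 at 706 mg/kg (9.74 against 7.20, 0.728), and without that array its pooled difference was -0.01.

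Replicate 3 at 706 mg/kg was low in Cyp1a2 (12.79 against 13.03, gap share 0.842) and Scai (3.61 against 3.88, 0.700) and high in Ctso (8.39 against 8.26, 0.648). Cxcl11 was low on replicate 6 at 706 mg/kg (0.713). At 70.6 mg/kg, Ces2c was low on replicate 2 (7.05 against 7.40, 0.707), Ncald high on replicate 3 (7.55 against 6.40, 0.630) and Socs3 high on replicate 4 (5.84 against 5.12, 0.687).

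At 0.71 mg/kg the gap shares were 0.630 for Acvr1 (high) and 0.635 for Arg1 (low) on replicate 1, and 0.763 for Gstm3 (high) on replicate 3. Replicate 4 gave 0.634 for Oas1b and 0.721 for Ctss, both low. Replicate 5 gave 0.651 for Stab1 and 0.720 for S100a8, both high. At 0.07 mg/kg, Car8 was high on replicate 3 (0.636) and Plek2 low on replicate 5 (0.642). Without that array the limma adjusted p of Plek2 was 0.214, where it was 1 with all 24 arrays.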

How the results depend on the processing

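The count of probe sets past the adjusted threshold was 0 under each alternative run, including an adjusted p under 0.1, either high dose or either low dose alone, a slope over log10 dose and leaving out each of the 24 arrays. The count at an unadjusted p under 0.05, 777, became 156 among probe sets with a mean of at least 6 and 327 with the brightest probe set of each gene, both with fewer probe sets tested. It ran from 664 to 949 without single arrays and from 665 to 991 in the other settings, with 892 without the 2 arrays of high control difference. Of 1062 pairs of a named probe set and an alternative, 1058 kept direction and side. The 4 reversals were Ehhadh (0.01), Sqle (0.05) and Nqo1 (-0.0029) without the 2 arrays, and Sqle (0.0014) under median centring. Without single arrays 17 of 2376 pairs reversed, all in 5 genes with small differences, whose values ran from -0.01 to 0.06 for Acot1, -0.06 to 0.01 for Ehhadh, -0.01 to 0.51 for Fgf21, -0.02 to 0.06 for Nqo1 and -0.05 to 0.08 for Sqle. None of the 20 genes of smallest p reversed in any of these. Those 20 and the list members named by smallest p were picked on these same arrays, so their kept direction carries no further weight. With no probe set past the threshold under any alternative, the side was the same throughout. With the replicate number as a block (replicate block), 0 probe sets passed in the pooled contrast (777 at an unadjusted p under 0.05), in the single dose pairs, in the differences between them and at 7.06 mg/kg against vehicle (1351). Deviations from the dose means correlated at -0.029 on average over 36 same-number pairs (-0.405 to 0.205). Only 1 of 24 arrays correlated best with its own number. The labels do not say what the numbers stand for.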

Other observations

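Of the 12 genes with the largest differences in size, whatever their p, 7 are given here, chosen after their values were seen. Abhd3, a phospholipase, differed by -1.61 (95% interval -3.06 to -0.17), with values of 2.61, 2.79 and 7.43 log2 (lowest, median, highest) in the high arm and 2.55, 3.27 and 7.80 in the low arm. Values above 5 log2 were read on 1 of 12 high-dose arrays and on 5 of 12 low-dose arrays. Cdh17, a cadherin, differed by -0.86 (-1.69 to -0.02), with SDs of 1.40 in the high arm and 0.61 in the low arm (n = 12 each). Lox, the enzyme that crosslinks collagen, differed by 0.78 (0.14 to 1.43) and by 0.72 at another probe set, with means of 7.29 and 7.96 at 0.07 and 0.71 mg/kg, 8.62 and 8.20 at 70.6 and 706 mg/kg, and 7.95 in vehicle. Bcl6, a transcriptional repressor, differed by -0.75 (-1.57 to 0.07), with a vehicle mean of 8.06 above that of every dose.

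Ephx2, soluble epoxide hydrolase, differed by -0.48 (-1.08 to 0.11). Its medians were close, 6.04 and 6.10, and the low arm reached 8.83 where the high arm ended at 6.29. Abo3 had the same form at dim values, with medians of 2.84 and 3.03 and maxima of 3.20 and 6.39. Gdf15, a stress cytokine, differed by 0.48 (0.0015 to 0.96), with means of 6.10 and 5.72 at 70.6 and 706 mg/kg and 5.87 at 7.06 mg/kg, against 5.46 in vehicle. The limma adjusted p was 1 for each of these genes.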
